A study of Mus musculus with 7 samples.

Results

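Transcripts of 10 ligands of the transforming growth factor beta (TGF-beta) family, Gdf10, Bmp2, Bmp4, Bmp5, Bmp6, Bmp7, Tgfb1, Tgfb2, Tgfb3 and Inhba, were measured in postnatal day 14 (P14) optic nerves of mice lacking fatty acid synthase (FASN) in oligodendrocytes (OLs) and of controls. The ligands were taken by name, as 10 of the 22880 genes of the deposited table. They had been proposed with their difference between mutants and controls in view, so that difference is described here with no p-value, and a count of ligands past a threshold is a description that supports nothing. Each sample held the optic nerves of 1 mouse. The 4 control mice were FASN lox/lox without Cre, and the 3 mutant mice were olig2cre FASN lox/lox, so both groups carried the floxed Fasn allele on a C57Bl/6 background. The paper lists lox/lox or lox/wt controls for its developmental studies, and a floxed line of other strain origin that was backcrossed to C57Bl/6. Cre was driven by the Olig2 locus, which is active in the OL lineage, and the nerve was measured whole with all its other cells. A change in the number of cells of a type and a change in RNA per cell cannot be told apart in such samples.

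Ligands of this family are secreted dimers that bring together type I and type II serine/threonine kinase receptors. The type I receptor then phosphorylates receptor Smads, Smad1, Smad5 and Smad9 in the BMP branch and Smad2 and Smad3 in the TGF-beta and activin branch, which enter the nucleus with Smad4. BMPs are known to hold back OL differentiation and to favour astrocytes, mainly through the Id proteins, and leptomeningeal fibroblasts, which wrap the optic nerve, are known producers of BMPs. Gdf10, also called Bmp3b, is a distant member of the BMP group, and TGF-betas are released from a latent complex before they can bind.

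The targeted gene was checked first. Fasn was at 210.3, 169.1, 211.1 and 228.3 FPKM (fragments mapped to the gene, per transcript length and library size) in controls 1 to 4, and at 69.3, 50.5 and 49.0 FPKM in mutants 1 to 3. It fell by 1.86 on the scale of log2(FPKM + 0.5) (SE 0.138, adjusted p = 0.00312, limma-trend), in the direction of the labels. Libraries held 27453278 to 43458919 reads. Across the 13866 genes tested, 363 passed an adjusted p of 0.05, that is 2.62%, with 175 higher in mutants (1.26%) and 188 lower (1.36%). The median difference of all tested genes was 0.05 on the log2 scale. An unadjusted p under 0.05 was found for 3387 of them (24.4%). That share stands beside every such count given below for the same fit. With FPKM rescaled by factors of the trimmed mean of M values (TMM), the same test called 138 genes higher and 237 lower. On the deposited normalized counts, which are not divided by length and were taken as log2(value + 1), it called 103 higher and 267 lower. With the replicate number as a block, 1159 genes passed (8.36%), of which 890 were higher (6.42%). Control 4 has no numbered partner and adds nothing to the difference in that fit. The labels do not say what the numbers stand for, so the pairing behind every block result is an assumption. On reads recovered from the normalized counts, with no block, edgeR called 371 of 15123 genes and DESeq2 1608 of 18780. These totals stand beside each count by the same tool given below.

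A promoter entry was found for 7 of the 10 ligands, the others being Bmp2, Bmp7 and Tgfb3. Of the tested ligands with an entry, Gdf10, Bmp5 and Bmp6 had the widest differences. Their 250 bases upstream of the RefSeq start (build GRCm38.p6, written 5′ to 3′ on the gene's strand) are given here. Capitals mark CAGAC, the core of the Smad-binding element, or its complement GTCTG. The windows lie at chr14:33923337-33923586 (+), chr9:75775115-75775364 (+) and chr13:38345466-38345715 (+).
Gdf10: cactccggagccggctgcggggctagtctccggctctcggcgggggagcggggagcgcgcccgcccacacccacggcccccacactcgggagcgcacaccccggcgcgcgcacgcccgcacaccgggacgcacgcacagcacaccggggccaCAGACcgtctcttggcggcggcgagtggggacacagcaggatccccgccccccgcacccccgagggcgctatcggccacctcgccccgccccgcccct
Bmp5: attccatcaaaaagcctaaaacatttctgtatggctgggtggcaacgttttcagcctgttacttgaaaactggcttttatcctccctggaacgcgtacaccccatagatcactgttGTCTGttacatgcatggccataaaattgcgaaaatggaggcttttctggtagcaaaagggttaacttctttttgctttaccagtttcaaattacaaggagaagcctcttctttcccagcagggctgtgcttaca
Bmp6: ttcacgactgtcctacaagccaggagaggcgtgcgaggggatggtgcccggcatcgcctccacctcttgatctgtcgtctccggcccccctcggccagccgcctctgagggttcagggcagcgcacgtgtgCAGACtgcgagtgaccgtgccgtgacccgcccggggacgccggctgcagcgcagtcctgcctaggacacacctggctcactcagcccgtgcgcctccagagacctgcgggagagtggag
Each of the 3 windows held 1 CAGAC counting both strands. At least 1 copy was in 42.2% of the 32851 windows of this length. The Gdf10 window was 78.8% G and C, with 4 copies of GGGCGG or its complement, the core bound by Sp1 and its relatives. The Bmp6 window was 68.8% G and C with 1 copy, and the Bmp5 window 42.8% with none, against 32.7% of all windows that hold this motif. The motif GGCGCC, known to be bound by BMP Smads, was in none of these 3 windows on either strand and in 9.59% of all windows. The same held for TATAAA, the core promoter element, which was in 12.4% of all windows.

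Gdf10 showed the widest difference of the 9 ligands that passed the filter. Its gene (ENSMUSG00000021943) spans bases 33923587 to 33935280 of chromosome 14 on the plus strand, with no annotated gene overlapping it. It stood at 14.5, 12.4, 15.4 and 16.7 FPKM in controls 1 to 4, and at 39.31, 21.25 and 24.96 FPKM in mutants 1 to 3. All 3 mutants lay above all 4 controls, and mutant 1 was well above the other mutants. The means were 14.8 ± 1.81 FPKM (SD, n = 4) and 28.5 ± 9.54 FPKM (SD, n = 3), a ratio of 1.93, and the difference was 0.89 on the scale of log2(FPKM + 0.5) (SE 0.190). Without mutant 1 the difference was 0.63, and without mutant 2 it was 1.07. It was the only one of the 9 ligands whose groups did not overlap. Among all tested genes 12.9% had groups that did not overlap in that direction, and nothing is read from the pair of values, since the ligands were chosen on this contrast.

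**Figure D1:**
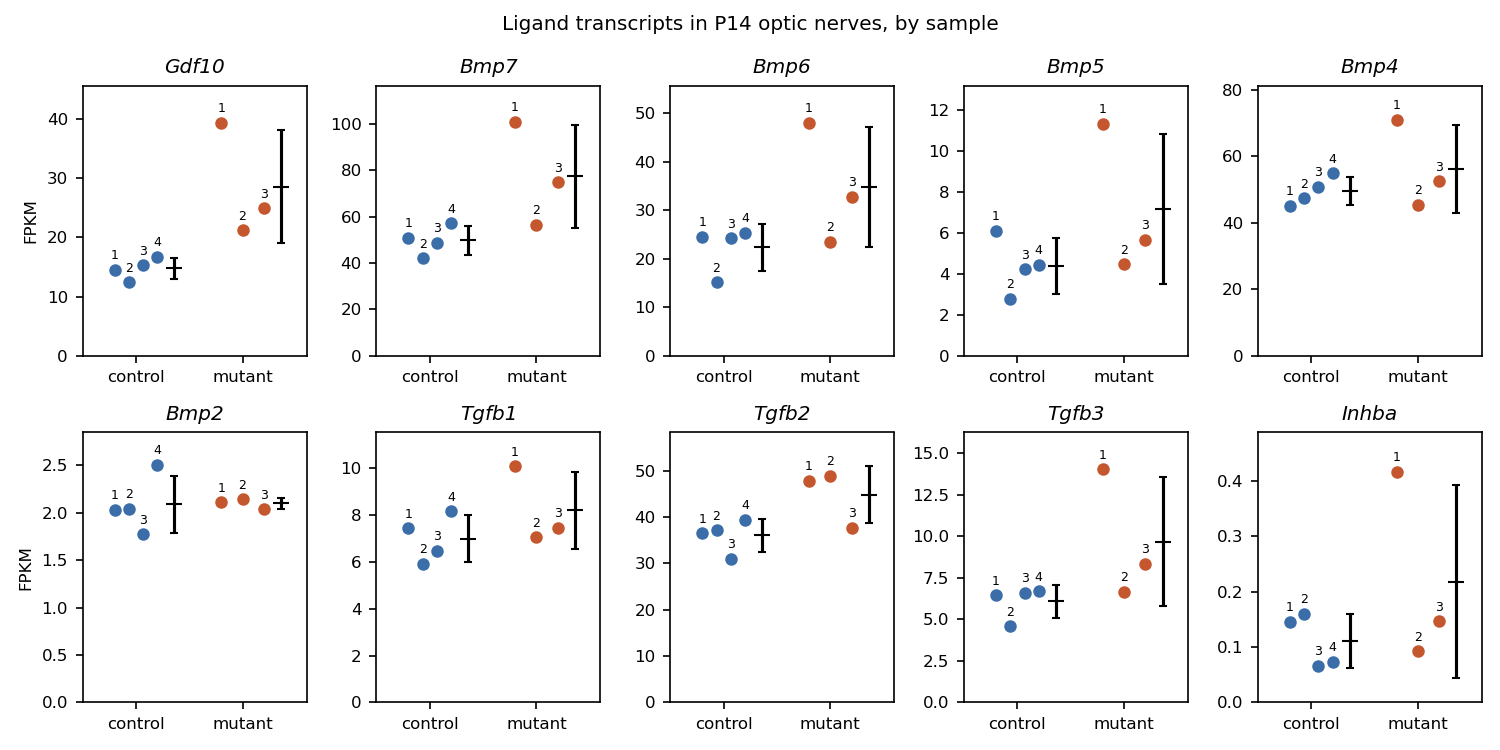
FPKM of each ligand in the 4 control (blue) and 3 mutant (orange) optic nerves at P14, with the replicate number above each point and the group mean ± SD as a black bar. Gdf10 is the one ligand whose 3 mutant values all lie above the 4 control values, and mutant 1 holds the highest value of most panels.

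Bmp7, Bmp6 and Bmp5, members of the 60A group of BMPs that bind mainly Acvr1, Bmpr1a and Bmpr1b, had differences close to each other. Bmp7 had the highest mean level of the ligands in both groups, though it was above Bmp4 in only 5 of 7 samples. It was at 50.9, 42.1, 48.7 and 57.3 FPKM in controls and at 100.9, 56.6 and 74.8 FPKM in mutants. Mutant 2 lay below control 4, so that the groups overlapped by 1 sample, and the ratio of means was 1.56, with a log2 difference of 0.60 (SE 0.177). Bmp6 was at 24.6, 15.3, 24.3 and 25.4 FPKM in controls and at 48.1, 23.6 and 32.9 FPKM in mutants, a log2 difference of 0.60 (SE 0.243). Here mutant 2 was below 3 of the 4 controls, while control 2 was far below the other controls. Bmp5 was at 6.11, 2.79, 4.23 and 4.46 FPKM in controls and at 11.4, 4.49 and 5.68 FPKM in mutants, a log2 difference of 0.59 (SE 0.308). Control 1 exceeded mutants 2 and 3. Without mutant 1 the differences were 0.39 for Bmp7, 0.34 for Bmp6 and 0.23 for Bmp5.

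Bmp4 and Bmp2, the dpp group that binds Bmpr1a and Bmpr1b with high affinity, differed little. Bmp4 was nearly as abundant as Bmp7 in controls, at 45.2, 47.4, 50.9 and 55.0 FPKM, and was at 71.1, 45.5 and 52.5 FPKM in mutants. Apart from mutant 1 the mutants lay within the range of the controls, and the log2 difference was 0.16 (SE 0.139), or -0.02 without mutant 1. Bmp2 was at 2.03, 2.04, 1.77 and 2.51 FPKM in controls and at 2.12, 2.15 and 2.04 FPKM in mutants. All 3 mutants were inside the control range, with a log2 difference of 0.01 (SE 0.120), and mutant 1 did not stand out.

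Of the TGF-betas, Tgfb2 was the most abundant, at 36.5, 37.1, 31.0 and 39.4 FPKM in controls and at 47.8, 48.9 and 37.7 FPKM in mutants. Mutants 1 and 2 exceeded all controls and mutant 3 did not, with a log2 difference of 0.31 (SE 0.111). Tgfb3 was at 6.48, 4.60, 6.61 and 6.71 FPKM in controls and at 14.1, 6.68 and 8.35 FPKM in mutants, a log2 difference of 0.58 (SE 0.228). Mutant 2 was just below control 4, and without mutant 1 the difference was 0.29. Tgfb1, the TGF-beta of microglia and endothelium, was at 7.44, 5.92, 6.47 and 8.16 FPKM in controls and at 10.1, 7.05 and 7.46 FPKM in mutants. Its groups overlapped, with a log2 difference of 0.21 (SE 0.145), or 0.06 without mutant 1.

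Inhba, the subunit of activin A, did not pass the filter of 0.5 FPKM in at least 3 samples. It was at 0.146, 0.161, 0.066 and 0.0733 FPKM in controls and at 0.417, 0.0923 and 0.146 FPKM in mutants. These values rest on 11, 11, 5 and 4 reads in controls and on 26, 5 and 7 reads in mutants, and apart from mutant 1 the mutants were inside the control range. No difference was detectable at this depth. Bmp4, Bmp5, Bmp6, Tgfb2, Tgfb3 and Inhba overlap annotated genes on the other strand, among them Ttll5 for Tgfb3, and Bmp5 also 1 on its own strand. Whether the counting used strand is not given in the sources used here, so reads of such partners may be included.

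The 10 ligands together gave 169.8 to 215.7 FPKM in controls and 216.2 to 345.2 FPKM in mutants. All 9 ligands that passed the filter had a log2 difference above 0, with a median of 0.58 (0.26 without mutant 1). Of all tested genes 60.1% were above 0, and as the ligands were chosen on this contrast their count is no result beside that share. In 7 of the 9 the highest value was that of mutant 1, and in 6 of the 9 the lowest was that of control 2. With the replicate number as a block, on the assumption that equal numbers pair samples, the log2 differences were 0.95 for Gdf10 (SE 0.143), 0.67 for Bmp7 (SE 0.110) and 0.61 for Bmp5 (SE 0.120).

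**Figure D2:**
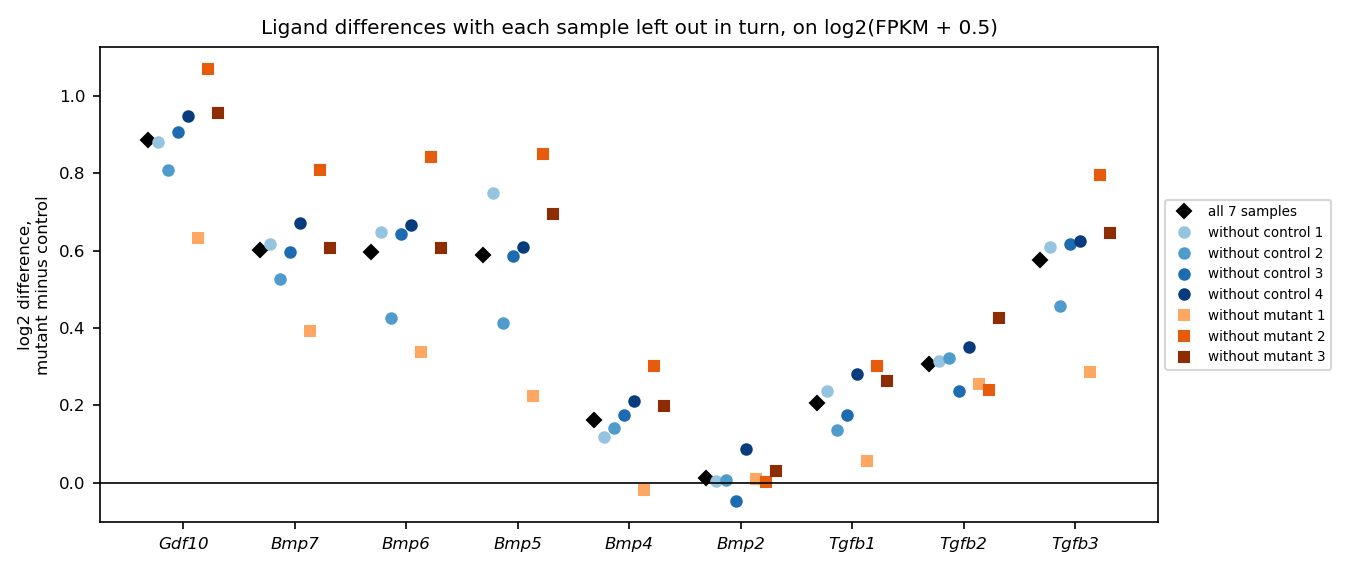
Difference between mutant and control on the scale of log2(FPKM + 0.5) for each tested ligand, with all 7 samples (black diamonds) and with 1 control (blue circles) or 1 mutant (orange squares) left out. Leaving out mutant 1 gives the lowest difference for 7 of the 9 ligands and takes Gdf10 to 0.63 and Bmp4 to -0.02.

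Per length of transcript, the order of mean levels in controls was Bmp7, Bmp4, Tgfb2, Bmp6, Gdf10, Tgfb1, Tgfb3, Bmp5, Bmp2 and Inhba. The control ranges of Bmp7 and Bmp4 overlapped, as did those of Bmp6 and Gdf10, of Tgfb1 and Tgfb3, and of Tgfb3 and Bmp5, while the other neighbours did not. In mutants, neighbours from Bmp7 down to Gdf10 all overlapped. Bmp6 was above Gdf10 in 7 of 7 samples, but Bmp7 was above Bmp4 in only 5 of 7. In both groups Gdf10 was clear of Tgfb1, Bmp5 of Bmp2, and Bmp2 of Inhba.

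Beyond these ligands, 94 genes of the pathway were listed, of which 67 passed the filter. By limma-trend, 2 were higher in mutants at an adjusted p of 0.05, Id2 and Bmpr1a, and 1 was lower, Smad7. This is 4.48% of those tested, against 2.62% of all genes. Differences were above 0 for 60 of the 67, with a median of 0.25, where 60.1% of all tested genes were above 0. The groups did not overlap for 29.9%, against 21.1% of all genes in either direction. With the replicate number as a block 15 of the 67 passed, 14 of them higher, where 8.36% of all genes passed and 6.42% were higher. Among the 14 were Tgfbr2, Tgfbr3, Smad3, Smad9, Ctgf, Nbl1, Twsg1 and Thbs1. Without mutant 2 the count was 7, where 909 of 13813 genes passed. Without control 2, 3 or 4 or mutant 3 it was 0, with 21 to 29 at an unadjusted p under 0.05. Among all genes tested, 2557 to 3128 had such a p by limma-trend in the settings that called 0.

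Among the type I receptors, Bmpr1a, a receptor of Bmp2 and Bmp4, rose. It was at 55.1, 47.0, 57.2 and 55.4 FPKM in controls and at 71.5, 70.7 and 75.0 FPKM in mutants, with all mutants above all controls and close to each other. The log2 difference was 0.43 (SE 0.0757, adjusted p = 0.0320). The call was lost without any 1 of the 4 controls, without mutant 1 or without mutant 3, while the difference stayed between 0.37 and 0.46. Bmpr1b, at 15.7, 16.2, 14.3 and 16.3 FPKM in controls and 17.3, 22.4 and 21.4 FPKM in mutants, was likewise free of overlap, with a log2 difference of 0.37 (adjusted p = 0.0774). Tgfbr1, the type I receptor of TGF-betas, differed by 0.23 (adjusted p = 0.0999) and Acvr1 by 0.05 (adjusted p = 0.756). Of 6 type I receptors tested, all mutants lay above all controls in 4, where 12.9% of all tested genes did so.

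None of the 5 type II receptors passed by limma-trend or edgeR, and 2 had an unadjusted p under 0.05 by limma-trend. DESeq2 called 1, where it called 1608 of 18780 genes. Tgfbr2, which binds TGF-betas first, was at 18.3, 12.3, 16.4 and 18.3 FPKM in controls and at 32.2, 19.9 and 23.7 FPKM in mutants. Its log2 difference was 0.60 (adjusted p = 0.0984), with adjusted p = 0.0235 under the replicate block and a range from 0.0116 to 0.222 over the 16 alternatives. Bmpr2, the shared type II receptor of BMPs, differed by 0.20 (adjusted p = 0.145). Of 5 co-receptors none passed by limma-trend or edgeR, with 3 at an unadjusted p under 0.05 by limma-trend and 1 called by DESeq2. Tgfbr3 (betaglycan), which presents TGF-beta2 to the receptors, differed by 0.63 (adjusted p = 0.161), or adjusted p = 0.0251 with the block and 0.0251 to 0.384 over the alternatives. Bambi, a decoy receptor without a kinase, was at 0.786 to 1.03 FPKM in controls and 1.06 to 1.40 FPKM in mutants and differed by 0.25 (adjusted p = 0.268).

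Of 8 Smads only Smad7 passed by limma-trend or edgeR, and it fell. DESeq2 called 2 higher, Smad3 and Smad9, and 1 lower, Smad7, where it called 1608 of 18780 genes. Smad7 is an inhibitory Smad that blocks type I receptors and is itself a target of the pathway. It was at 34.0, 40.6, 38.2 and 36.5 FPKM in controls and at 27.9, 30.0 and 27.2 FPKM in mutants, with all mutants below all controls and a log2 difference of -0.39 (SE 0.0745, adjusted p = 0.0374). Without any 1 of the 4 controls, mutant 1 or mutant 3 the call was lost, with the difference between -0.43 and -0.35. Smad6, the inhibitory Smad of the BMP branch, differed by 0.58 with overlapping groups (adjusted p = 0.242). Smad9 differed by 0.60 (adjusted p = 0.0722) and Smad3 by 0.40 (adjusted p = 0.0798), both without overlap. With the block these gave adjusted p = 0.0288 and 0.0251, in ranges over the alternatives from 0.00224 to 0.168 and from 0.0251 to 0.189. Smad1 differed by 0.13 (adjusted p = 0.434).

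Of 15 listed transcriptional targets Id2 rose by limma-trend and edgeR, and DESeq2 called Id2 and Ctgf higher. Id2 encodes a helix-loop-helix protein that lacks a DNA-binding region and holds back OL differentiation factors. Id2 was at 47.1, 40.7, 41.0 and 41.2 FPKM in controls and at 60.1, 55.0 and 65.2 FPKM in mutants. Its log2 difference was 0.49 (SE 0.0796, adjusted p = 0.0253 by limma-trend). The call was lost without control 2, 3 or 4 or without mutant 3, and the difference stayed between 0.44 and 0.56. The other Id genes had overlapping groups. Id1 differed by 0.27 (adjusted p = 0.501), Id3 by 0.23 (adjusted p = 0.480) and Id4 by 0.34 (adjusted p = 0.132). Ctgf, a TGF-beta target named after its values were seen, was at 33.4 to 58.2 FPKM in controls and at 67.6 to 98.9 FPKM in mutants (adjusted p = 0.0681).

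Among the 10 antagonists tested, none passed by limma-trend (3 at an unadjusted p under 0.05) or edgeR, and DESeq2 called 2. Nog, which sequesters Bmp2, Bmp4 and Bmp7, differed by -0.08 (adjusted p = 0.782) and Chrd, which binds Bmp4 and Bmp7, by 0.30 (adjusted p = 0.355). The 8 others included Nbl1, at 113.4 to 160.1 FPKM in controls and 167.7 to 277.9 FPKM in mutants, and Twsg1, at 21.7 to 29.3 and 32.7 to 46.2 FPKM, both named after their values were seen (adjusted p = 0.105 and 0.0848). Of 13 latency and activation genes tested none passed by limma-trend (4 unadjusted) or edgeR, and DESeq2 called 2. Thbs1, an activator of latent TGF-beta chosen in the same way, had the widest difference of the list, at 3.79 to 10.2 FPKM in controls and 10.4 to 37.6 FPKM in mutants (log2 difference 1.25, adjusted p = 0.131). Of 23 further ligands of the family only 5 passed the filter and none passed limma-trend (0 unadjusted), edgeR or DESeq2, with differences from 0.00 to 0.24.

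**Figure D3:**
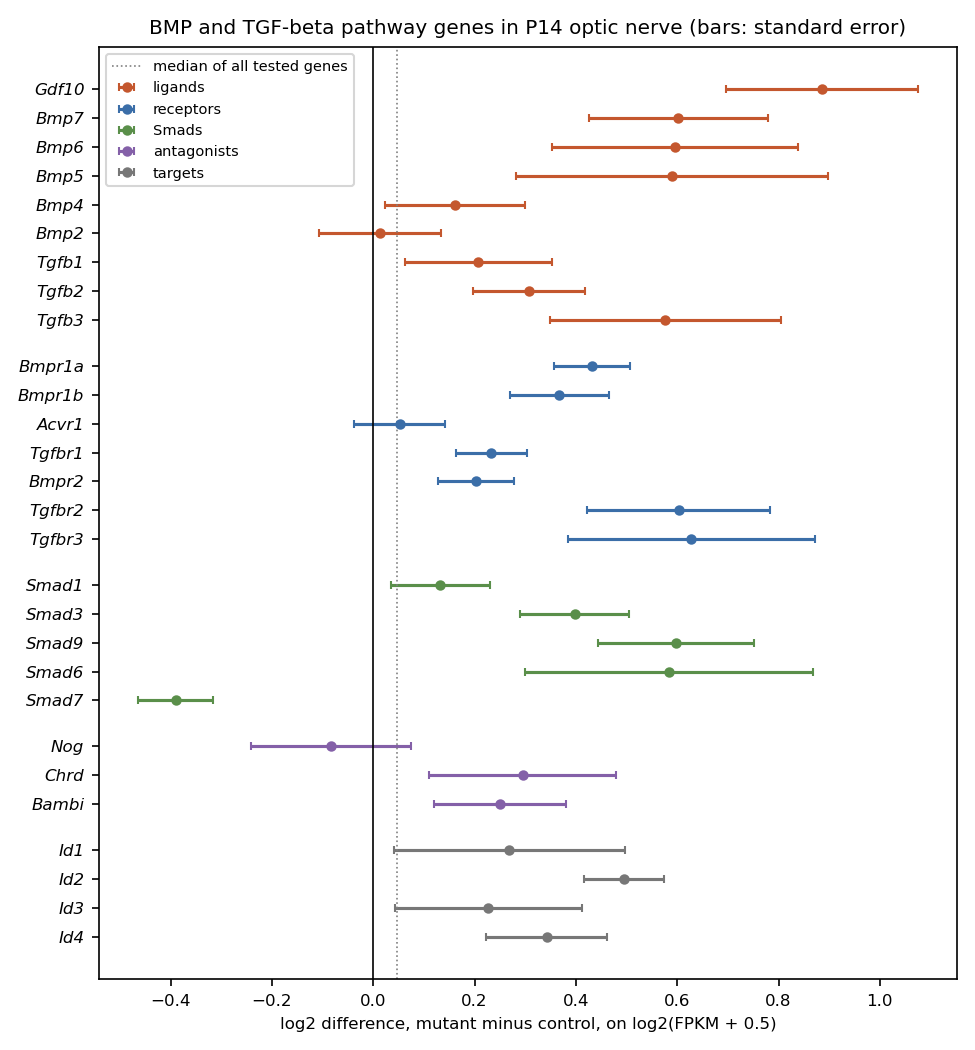
Difference between mutant and control on the scale of log2(FPKM + 0.5), with its standard error, for the 9 tested ligands and 19 named genes of the pathway, coloured by role. All but Nog, at -0.08, and Smad7, at -0.39, lie to the right of 0, and the dotted line marks the median of all tested genes (0.05).

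Cell type markers were read beside the ligands. All 18 markers of meningeal fibroblasts, such as Col1a1, Dcn, Slc6a13 and Aldh1a2, had differences above 0, with a median of 0.64, and 1 of them passed the test (Slc13a4, a sulfate transporter, adjusted p = 0.0468). With the replicate block 15 of the 18 passed, where 8.36% of all genes did, and 10 passed without mutant 2, where 909 of 13813 genes did. Without mutant 1 the median was 0.36 and 0 passed by limma-trend, with 11 at an unadjusted p under 0.05. In that setting 191 of 13739 genes passed and 2497 had such an unadjusted p. On recovered reads of all samples edgeR called 1 and DESeq2 12, where they called 371 of 15123 and 1608 of 18780 genes. Their summed level was 3430, 2483, 3011 and 3056 FPKM in controls and 6439, 3393 and 3970 FPKM in mutants, and none was at 0 in any sample. Igf2 alone gave 1204 to 1392 FPKM of the sums in controls and 1364 to 2669 FPKM in mutants. All 18 were highest in mutant 1 and 17 of 18 were lowest in control 2. The samples at the ends of this list were thus those at the ends for Gdf10, Bmp5, Bmp6, Bmp7, Tgfb1 and Tgfb3.

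Set per 1000 FPKM of that sum, a measure chosen after seeing the data, Bmp7 was at 14.8, 17.0, 16.2 and 18.7 in controls and at 15.7, 16.7 and 18.8 in mutants. The means of 16.7 and 17.1 lay close together and the groups overlapped. The same held for Bmp6 (means 7.43 and 7.56), Bmp5 (1.44 and 1.51) and Tgfb3 (2.03 and 2.08). Gdf10 was at 4.24 to 5.48 in controls and at 6.10 to 6.29 in mutants, so that its groups stayed apart, and Tgfb1 was lower in the mutants on this scale, with means of 2.34 and 1.84. Bmp4 (means 16.8 and 12.6), Bmp2 (0.706 and 0.491) and Tgfb2 (12.2 and 10.4) were also lower on average in mutants per unit of this sum, with overlapping groups. Relative to the mean log2 of the 18 markers, which weighs them equally, Bmp4 was lower in all mutants than in all controls (difference -0.466). Gdf10 and Tgfb1 kept their directions without overlap on that measure, and the other tested ligands overlapped. The part of the fibroblast markers in the ligand differences was not tested.

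**Figure D4:**
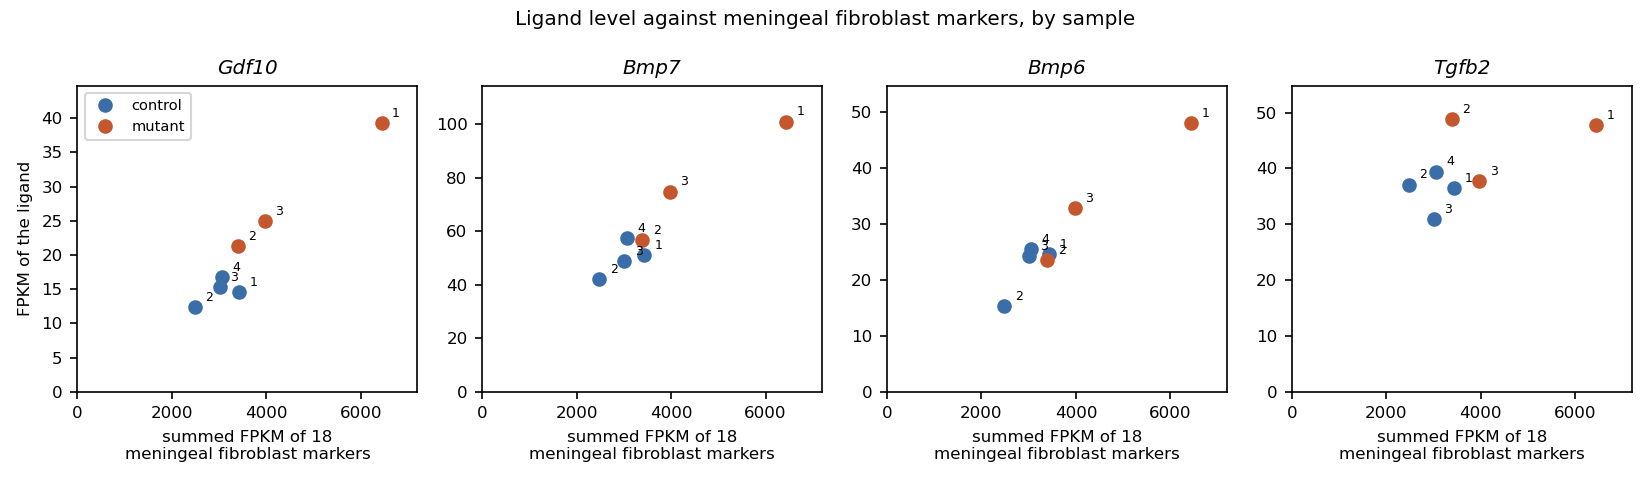
FPKM of Gdf10, Bmp7, Bmp6 and Tgfb2 (y axes) against the summed FPKM of 18 meningeal fibroblast markers (x axes) in each control (blue) and mutant (orange) sample, numbered by replicate. Mutant 1 stands at the far right at 6439 FPKM and is the highest point for Gdf10, Bmp7 and Bmp6, but not for Tgfb2.

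Astrocyte markers also stood higher. All 10 had differences above 0, with a median of 0.55. Limma-trend called 4 of them higher, Slc1a2, Aldh1l1, Gja1 and Aldoc, where it called 1.26% of all genes higher. With the replicate block 8 were called higher (6.42% of all genes). The count was 6 without mutant 1 (108 of 13739 genes higher) and 5 without mutant 2 (565 of 13813). On all samples edgeR called 4 and DESeq2 9. Their sum was 3155 to 3608 FPKM in controls and 4150 to 4991 FPKM in mutants, with mutant 1 the lowest mutant. Per 1000 FPKM of this sum Gdf10 was at 4.30, 3.82, 4.87 and 4.64 in controls and at 4.30 to 9.47 in mutants, which overlapped. Committed and newly formed OLs, the stages known to carry Bmp4, gave a summed marker level of 1034 to 1192 FPKM in controls and 705.6 to 886.3 FPKM in mutants. All 8 markers had differences below 0, with a median of -0.467. Limma-trend called 4 of them lower, where it called 1.36% of all genes lower. The count was 6 with the block (269 of 13866 genes lower), 1 without mutant 1 (83 of 13739) and 5 without mutant 2 (344 of 13813). On all samples edgeR called 4 of these markers lower and DESeq2 6. Per 1000 FPKM of this sum Bmp4 had means of 45.3 in controls and 71.2 in mutants, with overlapping groups. The other ligands also had higher means in mutants on this scale, whose sum was itself lower there. Markers of mature OLs summed to 59650 to 67440 FPKM in controls and 43480 to 56070 FPKM in mutants, so that the tissue's defining transcripts were present. All 10 had differences below 0, with a median of -0.275, and 2 were called lower. With the block or without mutant 1 limma-trend called 0, with 3 and 2 at an unadjusted p under 0.05. Without mutant 2 it called 3 lower, and on all samples edgeR called 1 and DESeq2 5.

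Of 10 mural, 11 endothelial and 10 microglial markers none passed on all samples by limma-trend without a block or by edgeR, with 2, 6 and 3 at an unadjusted p under 0.05 by limma-trend and medians of 0.20, 0.28 and 0.12. Of all tested genes 24.4% had such an unadjusted p. DESeq2 called 3 endothelial markers and none of the mural or microglial ones. With the replicate block limma-trend called 1 mural, 2 endothelial and 1 microglial marker, where 8.36% of all genes passed. It called 1 microglial marker without mutant 1 and 1 endothelial marker without mutant 2. In OL progenitors 6 of 8 markers had differences below 0, with a median of -0.245, and 1 was called lower. With the block 2 were called lower, and without mutant 1 limma-trend called 0, where 3 had an unadjusted p under 0.05. On all samples edgeR called 2 and DESeq2 3. Endothelial sums were 195.2 to 228.9 FPKM in controls and 240.6 to 269.9 FPKM in mutants, and microglial sums 360.1 to 450.0 and 406.9 to 455.3 FPKM. Skeletal muscle markers, with 2 of 6 listed at 0 in some sample, summed to 1.70 to 2.40 FPKM in controls and to 3.89, 68.3 and 5.04 FPKM in mutants 1 to 3, so that mutant 2 stood apart. Among the mutants it was the highest for Tgfb2 and Bmp2 and for no other ligand. The part of these markers in the ligand differences was not tested.

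The genes whose profile over the 7 samples lay nearest to each ligand were sought among 11695 genes with a mean of at least 2 FPKM, by the root mean square difference of log2 values relative to the control mean. For Gdf10 these were Hlf, a bZIP transcription factor (0.0845), Kcnj13, an inward rectifier potassium channel (0.0912), and Slc6a12, a betaine and GABA transporter (0.0931). For Bmp5 they were Col1a2, a chain of type I collagen (0.0663), Akap12 and Lox. Bmp6 lay nearest to Tgfbr3 (0.0471), Ace and Dse, and Bmp7 to C1qtnf2 (0.0510), Gprc5c and Slc6a13. Col1a2 and Slc6a13 are on the fibroblast list. Tgfb3 lay nearest to Fbln1, an extracellular matrix protein (0.0365), Lmo4 and Mxra8, and Tgfb1 to Acvr1b, an activin receptor (0.0307), Pcnt and Plin2. For Tgfb2 the nearest were Rarres2, Magi3 and Irf2bp2, for Bmp4 Scrn2, Lrp3 and Triobp, and for Bmp2 Zfp935, Wwc1 and Tk1.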

How the data were processed

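RNA of P14 optic nerves of 4 control and 3 mutant mice was sequenced by the authors in single end mode from stranded mRNA libraries. Per the labels, reads were aligned with STAR 2.5.1b to GRCm38 and quantified with RSEM 1.2.22, and edgeR is named for the authors' test. The deposited table holds for each sample a normalized count, a signal per gene scaled by the authors for library size, and an FPKM value. It also holds the authors' fold change, p-value and FDR, which were not used.

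All 14 value columns were used. FPKM values were compared with limma-trend (limma 3.58.1, R 4.3.3) on log2(FPKM + 0.5), for genes with at least 0.5 FPKM in at least 3 samples, with no term beside genotype, and p-values were adjusted by Benjamini-Hochberg over all genes tested. Fold changes on this scale understate those of low genes. As no raw counts were in the table, reads were recovered from the normalized counts by dividing by the value of 1 read in each sample. Of values from 0.5 to 10 reads, 75.6% to 80.6% were whole within 0.05. Precision rests on 27453278 to 43458919 reads per sample. Recovered reads were tested with edgeR 4.0.16 (quasi-likelihood) and DESeq2 1.42.0 as alternatives, beside other pseudocounts, filters and scalings, the replicate block and each sample left out. Alternatives for marker lists were added after seeing the data. The procedures were tested on simulated data. Replicates differed beyond sampling noise, with a median chi-square per gene of 2.09 to 5.72, and were kept apart.

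Replicate numbers come from the labels, which do not say what they stand for. Deviations from the group mean were correlated across genes between control and mutant of 1 number at 0.168, 0.409 and 0.27. Between other pairs the correlations were -0.353 to 0.205. Numbers were read as pairs from these values alone, although mutant 1 correlated more with control 4 (0.205) than with control 1 (0.168).

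The ligands, the lists of pathway genes and markers, and the tests were chosen with earlier results of these data known. Genes were named by a fixed rule: the ligands, Fasn, every pathway gene past the threshold, 19 receptors, Smads, Id genes and antagonists whatever their values, and the 3 nearest profiles of each ligand. Ctgf, Nbl1, Twsg1 and Thbs1 and single markers were named outside it, after their values were seen. Promoters were taken from RefSeq on GRCm38.p6. Overlapping genes were taken from the GENCODE annotation of GRCm38.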

Additional observations from a re-analysis of the deposited data

Results flagged for a closer look

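In 7 of 39 control groups of 4 samples that were examined, 1 value lay far from the others by Dixon's ratio of gap to range, at a level that chance passes in about 5% of groups. Control 2 was the lowest for Bmp6 (15.26 FPKM), Tgfb3 (4.598 FPKM), Tgfbr3 (21.96 FPKM) and Acvr1 (8.427 FPKM). The same sample was the lowest for 17 of 18 meningeal fibroblast markers. Control 1 was the highest for Id2 (47.11 FPKM), below all 3 mutants. Control 4 was the highest for Id3 (139.6 FPKM) and for the summed microglial markers (450.0 FPKM), in the latter within the mutant range. The causes were not tested.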

How the results depend on the processing

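Over 16 alternatives, 138 of 144 differences of the 9 tested ligands kept their sign, the exceptions being values of Bmp2 and Bmp4. With no filter, limma-trend called 0 ligands (3 at an unadjusted p under 0.05), 0 pathway genes (26 unadjusted) and 95 genes in all (3642 unadjusted). With the replicate block it called 6 ligands, 15 pathway genes and 1159 genes, and DESeq2 called 3 ligands (Bmp7, Gdf10 and Tgfb3), 12 pathway genes and 1608 genes, where edgeR called 1, 3 and 371. With 1 sample left out, 0 to 2 ligands, 0 to 7 pathway genes and 6 to 909 genes passed. All genes numbered 62, 15, 6 and 119 without controls 1 to 4, and 191, 909 and 6 without mutants 1 to 3. The ligand count was 0 by limma-trend without any 1 of the 4 controls or without mutant 3, with 3 to 5 at an unadjusted p under 0.05. In those settings 2557 to 3168 of all genes had such a p. As the ligands were chosen on this contrast, their counts describe the settings and are no test of the ligands. The lost calls came with fewer samples or more genes tested, and beyond that the cause was not tested. Of 320 values of 20 other named genes, 287 kept direction and call, 19 lost the call, 11 gained it and 3 reversed. Acvr1 reversed on normalized counts (-0.0228) and ran from -0.0224 to 0.0995 with 1 sample left out, where Nog ran from -0.256 to 0.0445. The block changed no call of a pathway gene named in the report other than those of Tgfbr2, Tgfbr3, Smad3, Smad9, Ctgf, Nbl1, Twsg1 and Thbs1. Fasn passed in 17 of 17 settings. The share of higher calls among all genes was 48.2%, and 36.8% with TMM and 27.8% on normalized counts. Depth limited Inhba, with 4 to 26 reads a sample.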
